A study of Rattus norvegicus with 50 samples.

Results

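Glucocorticoid-induced genes were followed in the lungs of rats that had breathed TiO2 nanoparticles or filtered air. The 8 genes were *Fkbp5*, *Tsc22d3*, *Zbtb16*, *Sgk1*, *Dusp1*, *Klf9*, *Hif3a* and *Errfi1*, taken by name as known targets of the glucocorticoid receptor. They and the gene lists used below were chosen with earlier results of these data known. All 8 were on the array with 1 probe each, and all 8 were among the 25235 genes tested. The animals were male F344 rats, labelled 12 weeks old on every day, with 50 rats in 10 groups of 5. Exposed rats inhaled an aerosol of TiO2 P25 (Evonik) at 10 mg/m3, nose-only, for 6 hours a day on 5 days a week over 4 weeks, and control rats were treated in the same way with filtered air. Lungs were taken on day 0, 3, 28, 90 or 180 after the end of exposure (D0, D3, D28, D90 and D180), and RNA of the accessory lobe of 1 rat was hybridised to each 1-colour array. All rats, controls included, were confined for nose-only inhalation and were killed under pentobarbital anaesthesia. No genetic modification is given for any group. Strain, sex and nose-only confinement were shared, and the aerosol was the labelled difference between exposed and control rats of a day.

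Glucocorticoids are steroid hormones of the adrenal cortex that enter cells, bind the glucocorticoid receptor (encoded by *Nr3c1*) and send it to the nucleus, where it switches target genes on or off. Their blood level follows the time of day and rises with stress, and in the lung they restrain inflammation and act on the epithelium that makes surfactant. Target genes that respond in nearly every tissue, such as *Fkbp5* and *Tsc22d3*, are often read as a measure of how much hormone the tissue has seen. Neither the hormone itself nor the time of day at which each rat was killed is given in the labels.

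The promoters of 4 of the genes are shown because the results below turn on these genes: *Fkbp5* for its lower level in exposed rats, *Dusp1* for its difference at D0, and *Tsc22d3* and *Klf9* for their agreement within rats. The sequences are the 250 bases before the start site in RefSeq, on build GRCr8, read 5′ to 3′ on the strand of the gene. Capitals mark a match to ACANNNTGT (N is any base), the inverted repeat of the glucocorticoid receptor's binding site, or to TGACGTCA. The latter is the full site of cyclic AMP response element binding proteins. Both patterns read the same on both strands. The *Fkbp5* sequence is chr20:6543556-6543805 (minus strand), that of *Tsc22d3* (the second of its 3 listed starts) chrX:109065431-109065680 (minus), that of *Dusp1* chr10:17184603-17184852 (plus) and that of *Klf9* chr1:230126396-230126645 (plus).
Fkbp5: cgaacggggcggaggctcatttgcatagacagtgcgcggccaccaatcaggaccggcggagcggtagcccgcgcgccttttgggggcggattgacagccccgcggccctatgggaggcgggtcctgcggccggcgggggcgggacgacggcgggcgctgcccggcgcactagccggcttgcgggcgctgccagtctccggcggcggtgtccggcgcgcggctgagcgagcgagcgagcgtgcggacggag
Tsc22d3: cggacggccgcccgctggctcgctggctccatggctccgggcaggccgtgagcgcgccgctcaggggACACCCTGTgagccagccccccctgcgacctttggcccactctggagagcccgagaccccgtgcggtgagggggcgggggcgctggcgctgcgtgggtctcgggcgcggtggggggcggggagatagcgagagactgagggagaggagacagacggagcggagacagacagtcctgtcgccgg
Dusp1: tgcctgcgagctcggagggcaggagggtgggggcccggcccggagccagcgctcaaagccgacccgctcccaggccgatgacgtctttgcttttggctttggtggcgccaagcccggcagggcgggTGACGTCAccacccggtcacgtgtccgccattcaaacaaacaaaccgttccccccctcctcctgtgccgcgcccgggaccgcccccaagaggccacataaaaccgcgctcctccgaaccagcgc
Klf9: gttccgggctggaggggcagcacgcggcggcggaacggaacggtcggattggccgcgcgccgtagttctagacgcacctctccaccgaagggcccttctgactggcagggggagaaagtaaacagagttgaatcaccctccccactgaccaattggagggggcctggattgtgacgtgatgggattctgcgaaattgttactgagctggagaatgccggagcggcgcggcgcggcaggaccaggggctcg

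Promoter windows of 300 bases, from 250 before to 50 after a start site, were given for 7 of the 8 genes, 12 windows in all, and none was given for *Zbtb16*. ACANNNTGT was present in 1 of the 7 genes, *Tsc22d3*, where ACACCCTGT began 183 bases before the second start. Among all 27457 genes with a promoter window, 7.31% held the pattern. TGACGTCA, which was added after the sequences had been seen, was present in *Dusp1* alone of the 7 genes, beginning 124 bases before its start, against 2.00% of all genes. The *Fkbp5* and *Klf9* windows held neither pattern. Receptor binding sites often lie far outside a window of this size.

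Levels are given as log2 signal after quantile normalization, and each value is 1 rat. Differences are exposed minus control on that scale, with the standard error (SE) of limma's fit over all 50 arrays. A gene was called when it differed at least 1.5-fold with a Benjamini-Hochberg adjusted p under 0.05 over all 25235 genes. The median signal of an array was 198 to 473, and 68.7 to 84.5% of its gene spots were well above background by the scanner software. The 50 arrays lay on 7 slides. D0, D3 and D28 rats were on slides 1 to 4 and D90 and D180 rats on slides 5 to 7, apart from 1 exposed D3 rat on slide 7, and every slide held control and exposed rats. Slide accounted for 99.04% of the first principal component, which held 25.7% of the variance, so each result is followed by the fit with slide as a block where the call differs. The shares of all genes called are those of the fit without this block throughout. No such share is given for the fit with it, so counts from that fit have no share to be set against. All 6 lung epithelial markers, surfactant genes *Sftpc* and *Sftpb* among them, were well above background on all 50 arrays, and 5 of 6 cardiac muscle markers were too.

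Averaged over the 5 days, 6 of the 8 genes were lower in exposed rats, and *Fkbp5* and *Zbtb16* were the 2 that passed both the fold limit and the test. *Fkbp5* encodes a chaperone that binds the glucocorticoid receptor complex and lowers its affinity for hormone, which closes a negative feedback loop. *Zbtb16* encodes PLZF, a zinc finger transcription repressor that also directs the development of innate-like lymphocytes. In this average *Fkbp5* differed by -0.75 ± 0.14 (SE; 25 exposed and 25 control rats, adjusted p = 6.1e-05), a 1.68-fold lower level. *Zbtb16* differed by -1.79 ± 0.36 (adjusted p = 0.000158). The size of the *Zbtb16* difference depends on the background correction, since its probe was well above background in 1 of 5 exposed D3 rats and on 44 of 50 arrays: with normexp correction it was -1.29 (adjusted p = 7.46e-05). This average was chosen after the daily values had been seen, and 354 genes, 1.4% of those tested, were called in it. In each of the 50 fits that left out 1 rat of any group, both genes were still called, with adjusted p of at most 0.000329. In whole lung tissue a lower signal can come from fewer cells of the type that expresses a gene or from less RNA per cell, and these cannot be told apart. The 4 endothelial markers (*Pecam1*, *Cdh5*, *Tek* and *Vwf*) were lower in exposed rats on all 5 days, with median differences of -0.52, -0.34, -0.38, -0.21 and -0.21. *Tek* was called at D0, but with slide as a block 0 of the 4 markers were. Their summed linear signal did not overlap between groups at D0 (51421 to 56061 in control and 32137 to 42989 in exposed rats), D28 (52217 to 61569 against 44419 to 50016) and D90 (57249 to 62068 against 47265 to 56517). It overlapped at D3 (43859 to 53601 against 35134 to 45415) and D180 (60464 to 70936 against 53940 to 63434). The median of the 5 red blood cell markers was also lower on every day (-0.34 to -0.10). None of the 5 was called by limma on any day, also with slide as a block, and 0 to 3 of them had an unadjusted p under 0.05. Within groups the endothelial score correlated with *Fkbp5* at 0.11 and with *Zbtb16* at 0.11 (adjusted permutation p = 0.636 and 0.64). At D28 1 of the 6 cardiac muscle markers was higher in exposed rats (median -0.35), and 3 had an unadjusted p under 0.05 by limma. None was called, but with slide as a block 1 was. The summed linear signal of these 6 did not overlap at D28 (38084.5 to 52400 in control and 25972.5 to 36628 in exposed rats). It overlapped on the other days. The part of endothelial, blood or cardiac muscle content in the lower *Fkbp5* and *Zbtb16* was not tested.

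The *Fkbp5* values at D0 were 12.92, 13.57, 12.72, 12.41 and 11.73 in control rats and 12.68, 11.97, 11.53, 11.74 and 11.82 in exposed rats. At D3 they were 11.55, 11.97, 11.75, 12.11 and 12.75 in control rats and 11.14, 10.96, 11.02, 11.48 and 11.65 in exposed rats. On both days the groups overlapped by the lowest control rats, and the differences of -0.73 ± 0.31 and -0.77 ± 0.31 did not pass the test (adjusted p = 0.131 and 0.116). At D28 the control rats were at 12.51, 12.40, 12.78, 13.12 and 12.00 and the exposed rats at 11.31, 11.19, 11.60, 11.94 and 11.50. Every exposed rat was below every control rat, and the difference of -1.05 ± 0.31, a 2.08-fold lower level, was called (adjusted p = 0.0434). At D90 control rats had 12.43, 12.67, 12.41, 11.49 and 11.64 and exposed rats 11.07, 11.29, 11.86, 12.33 and 11.98, which overlapped widely (-0.43 ± 0.31, adjusted p = 1). At D180 control rats had 13.28, 13.06, 13.36, 11.68 and 13.07, and exposed rats 12.80, 11.77, 12.00, 11.57 and 12.56. There all exposed rats were below 4 of the 5 control rats, and the fifth control rat was among the lowest of that day (-0.75 ± 0.31, adjusted p = 0.43).

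*Zbtb16* means were also lower in exposed than in control rats on all 5 days, with a much wider spread. Control rats at D0 had 9.17, 9.44, 8.98, 8.48 and 7.15, and exposed rats 8.85, 7.94, 5.78, 7.78 and 6.97 (-1.18 ± 0.80, adjusted p = 0.435). At D3 control rats had 6.17, 6.01, 7.45, 8.94 and 9.01, and exposed rats 5.36, 4.80, 5.33, 6.18 and 4.99. The exposed D3 group was at the limit of detection, since the probe was well above background in 1 of its 5 rats, and the difference of -2.19 ± 0.80 did not pass the test (adjusted p = 0.0744). At D28 control rats had 8.72, 9.40, 9.52, 9.28 and 7.98, and exposed rats 5.86, 5.44, 5.65, 7.40 and 6.86. The groups did not overlap, and the difference of -2.74 ± 0.80 was called (adjusted p = 0.0401); with normexp correction it was -1.96 (adjusted p = 0.0319). At D90 control rats had 9.75, 9.75, 9.36, 7.50 and 7.30, and exposed rats 5.30, 5.53, 6.59, 7.78 and 7.24 (-2.24 ± 0.80, adjusted p = 0.265). At D180 control rats had 9.64, 9.87, 10.04, 4.41 and 10.09, and exposed rats 9.76, 6.35, 8.53, 6.90 and 9.37 (-0.63 ± 0.80, adjusted p = 1). The control D180 rat at 4.41, replicate 4, was the same animal that had the lowest *Fkbp5* of its group, and without it the D180 difference of *Zbtb16* was -1.73 and that of *Fkbp5* -1.05, which also did not pass the test (adjusted p = 0.399 and 0.0976).

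**Figure D1:**
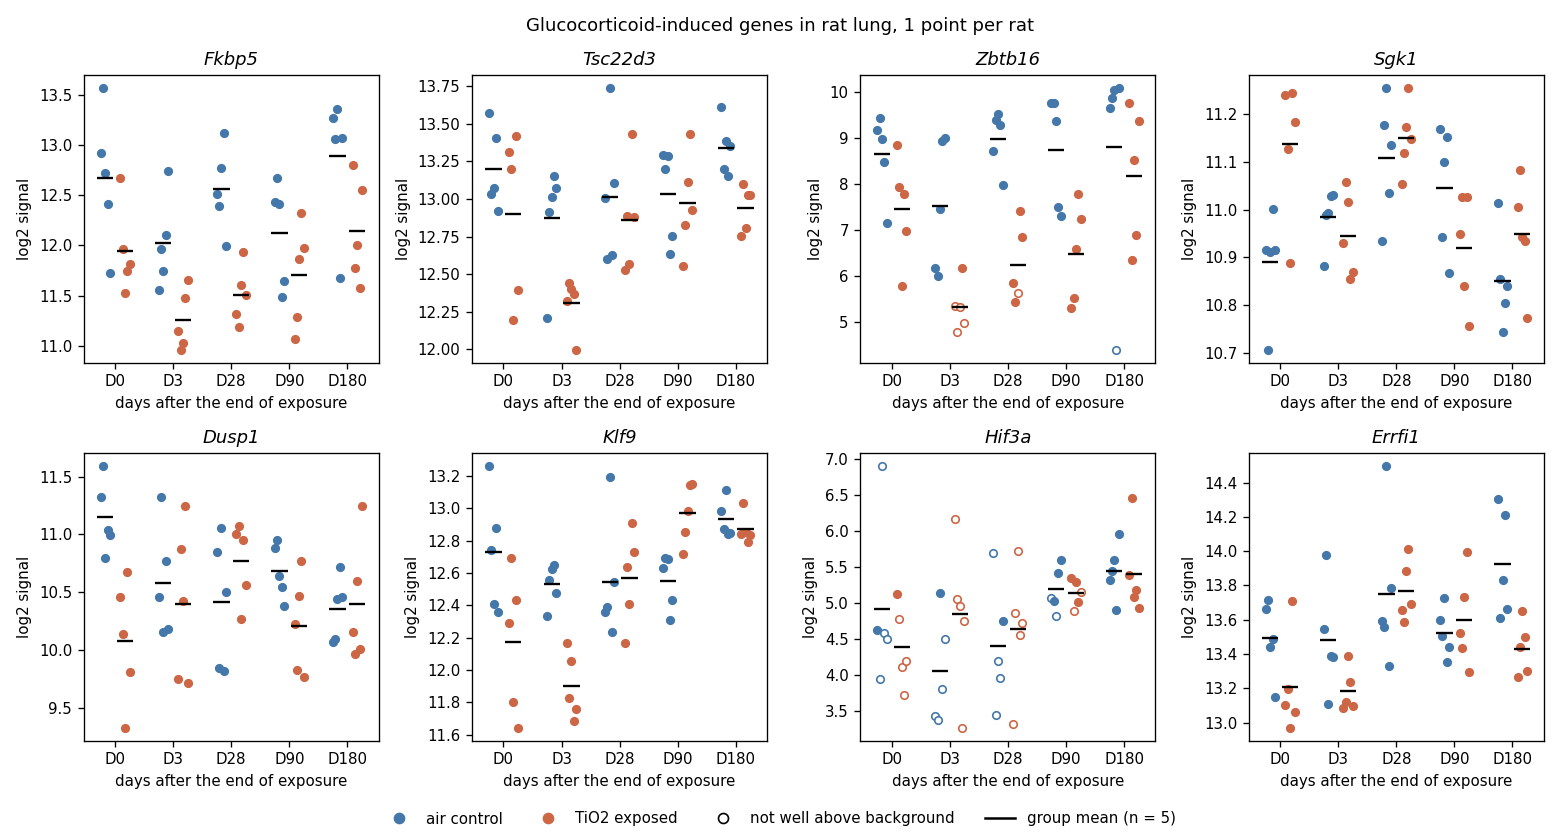
Log2 signal of each of the 8 genes (vertical axis) in every rat by day after the end of exposure (horizontal axis), with air controls in blue, TiO2-exposed rats in orange, group means as black bars (n = 5) and open points for probes that were not well above background in that rat. *Fkbp5* and *Zbtb16* means were lower in exposed rats on all 5 days, and the exposed and control points of both separated fully at D28.

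At D28, 2 of the 8 genes were called, both lower, where 1.33% of all genes were called in either direction. The same 2 of 8 genes had groups that did not overlap, as did 3.79% of all genes. Both calls lay close to the threshold: each was lost in 8 of the 10 fits that left out 1 D28 rat, with adjusted p up to 0.135 for *Fkbp5* and 0.109 for *Zbtb16*, while their differences stayed between -1.19 and -0.91 and between -3.03 and -2.54. Fitted on the 10 arrays of D28 alone, *Fkbp5* was not called (adjusted p = 0.0763). The other 6 genes ranged from -0.16 to 0.36 at D28, and the median over all 8 was 0.02, beside -0.001 over all genes. Within the 3 slides that held both groups of D28, exposed rats were lower in all 3 for both genes, by -1.30 to -0.66 for *Fkbp5* and by -3.59 to -1.83 for *Zbtb16*.

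*Dusp1* was the 1 gene called at D0, when 4.28% of all genes were called. It encodes a phosphatase that inactivates MAP kinases, is induced within minutes by stress as well as by glucocorticoids, and limits inflammatory signalling. Control rats at D0 had 11.32, 11.59, 10.80, 11.04 and 10.9996, and exposed rats had 10.46, 10.13, 9.33, 10.68 and 9.81. No exposed rat reached the lowest control rat (8.51% of all genes had groups that did not overlap), and the difference was -1.07 ± 0.29 (2.10-fold lower, adjusted p = 0.00708). The call held in all 10 fits without 1 D0 rat, and exposed rats were lower within each of the 4 slides of that day (-2.27 to -0.64). At D28 control rats had 10.85, 9.84, 11.05, 9.81 and 10.51 and exposed rats 11.0016, 11.07, 10.27, 10.95 and 10.57, which overlapped with the exposed mean higher (0.36 ± 0.29, adjusted p = 0.573). The exposure effect at D28 was 1.43 ± 0.40 above that at D0 (adjusted p = 0.0427, 1.6% of all genes called), so the difference between the days was itself past the test. That call was lost in 12 of 20 fits without 1 rat (adjusted p up to 0.116). At D3, D90 and D180 the groups overlapped, with differences of -0.18, -0.47 and 0.04.

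*Klf9* was called at D3, when 3.48% of all genes were called. It encodes a zinc finger transcription factor that is induced by glucocorticoids and thyroid hormone and is also coupled to the circadian clock. At D3 control rats had 12.33, 12.55, 12.63, 12.65 and 12.48, and exposed rats 12.16, 11.83, 12.06, 11.68 and 11.76. The groups did not overlap (6.76% of all genes), and the difference was -0.63 ± 0.17 (1.55-fold lower, adjusted p = 0.00791). Within each of the 4 slides with both groups exposed rats were lower (-0.80 to -0.59). Without exposed replicate 4 it was just under the 1.5-fold limit at -0.58 (adjusted p = 0.0234). At D0 control rats had 13.26, 12.74, 12.41, 12.88 and 12.36, and exposed rats 12.29, 12.69, 11.80, 12.43 and 11.64. These overlapped, and the difference of -0.56 ± 0.17 passed the test but not the fold limit (1.47-fold lower, adjusted p = 0.0169); with slide as a block it was -0.61 and was called (adjusted p = 9.34e-05). At D90 the order was turned: control rats had 12.63, 12.69, 12.69, 12.31 and 12.44, and exposed rats 12.71, 12.85, 12.98, 13.14 and 13.15. All exposed rats were then above all control rats (3.82% of all genes did not overlap), but the difference of 0.42 ± 0.17 did not pass the test (adjusted p = 0.398). With slide as a block it passed (adjusted p = 0.0276) and stayed under the fold limit. The exposure effect on *Klf9* at D90 was 0.98 ± 0.23 above that at D0 (adjusted p = 0.00714, 2.17% of all genes called), and this held in all 20 fits without 1 rat. The comparisons of a later day with D0 all share the 10 D0 rats.

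*Tsc22d3* encodes GILZ, a leucine zipper protein that blocks NF-kB and AP-1 and carries part of the anti-inflammatory action of glucocorticoids. At D3 control rats had 12.21, 12.92, 13.01, 13.15 and 13.07, and exposed rats 12.32, 12.44, 12.40, 12.37 and 12.00. All exposed rats were below 4 control rats, and the fifth, replicate 1, was lower than 4 of the exposed rats. The difference was -0.57 ± 0.21 (adjusted p = 0.0876); with slide as a block it was -0.60 and was called (adjusted p = 0.0133), and without control replicate 1 it was -0.73 and was called (adjusted p = 0.0233). At D180 control rats had 13.61, 13.20, 13.38, 13.15 and 13.36, and exposed rats 12.75, 13.10, 12.81, 13.03 and 13.03. These groups did not overlap (4.22% of all genes), yet the difference of -0.40 ± 0.21 was within the error of the fit (adjusted p = 0.704). Averaged over the days the difference was -0.30 ± 0.10 (1.23-fold lower, adjusted p = 0.0219), past the test and under the fold limit.

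*Sgk1*, *Errfi1* and *Hif3a* were not called at any of the 5 days. *Sgk1* encodes a kinase that raises sodium channel activity at the epithelial surface and had the narrowest spread, with all 50 rats between 10.71 and 11.26. At D0 control rats had 10.92, 10.71, 10.91, 11.0015 and 10.92, and exposed rats 11.24, 11.13, 10.89, 11.25 and 11.18. Of the exposed rats 4 were above all controls, and the difference of 0.25 ± 0.07 (1.19-fold higher, adjusted p = 0.0165) was opposite in sign to the other 7 genes on that day. *Errfi1*, which encodes MIG6, a feedback inhibitor of the EGF receptor, lay between 12.97 and 14.50. Its largest difference was at D180, where control rats had 14.30, 13.61, 13.83, 14.21 and 13.66 and exposed rats 13.26, 13.44, 13.65, 13.50 and 13.30. The groups overlapped by 1 rat, and the difference of -0.49 ± 0.17 did not pass the test (adjusted p = 0.204). *Hif3a*, a member of the hypoxia-inducible factor family, was dim: its probe was well above background on 20 of 50 arrays and on none of the exposed rats of D3 and D28, so no fold is given for it on those days. Its values ran from 3.27 to 6.90.

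Across the days, 7 of 8 genes were lower in exposed rats at D0 and at D3, 3 at D28 and 6 at D90 and at D180. Of all genes, 51.7%, 51.3%, 50.2%, 49.8% and 49.0% were lower on the 5 days in turn. These counts of the 8 include the dim *Hif3a*, whose sign is uncertain where its probe was near background. The median difference of the 8 genes was -0.54 at D0 and -0.43 at D3, beside -0.01 over all genes on both days. At D90 and D180 it was -0.09 and -0.23, beside 0.001 and 0.004. No gene of the 8 was called at D90 (0.38% of all genes called) or at D180 (0.325%) by limma, and 2 of the 8 had an unadjusted p under 0.05 on each of these days. With slide as a block there were also 0 calls on both days. No gene was called for the exposure effect at D3 against D0 (0.678% of all genes) or at D180 against D0 (2.24%), where 3 and 2 genes had an unadjusted p under 0.05. With slide as a block, *Dusp1* was called in the latter (1.25, adjusted p = 0.026).

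**Figure D2:**
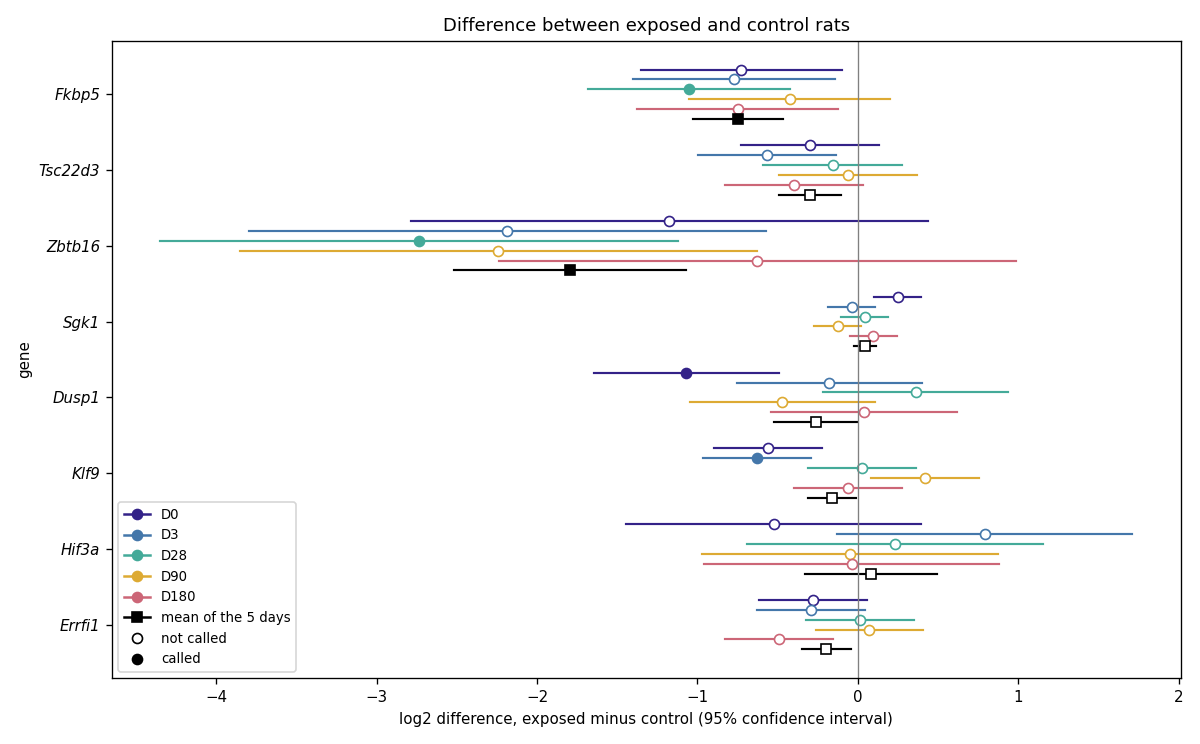
Difference between exposed and control rats (horizontal axis, log2, with 95% confidence interval) for each of the 8 genes (vertical axis) at each day, and their mean over the 5 days as black squares; filled symbols passed both the fold limit and the adjusted p. The mean of the 5 days was called for *Fkbp5* (-0.75) and *Zbtb16* (-1.79), and the order of the days differed between genes.

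Control rats showed no called change in any of the 8 genes between consecutive days. The shares of all genes called were 2.32% for D3 against D0, 0.638% for D28 against D3, 5.25% for D90 against D28 and 0.0198% for D180 against D90. Unadjusted p under 0.05 was found for 1, 0, 0 and 4 of the 8 genes in turn, and the fit with slide as a block also gave 0 calls in each. *Zbtb16* means in control rats ran from 7.52 ± 1.44 (SD, n = 5) at D3 to 8.98 ± 0.64 at D28. *Fkbp5* means were 12.67 ± 0.68 at D0, 12.03 ± 0.46 at D3 and 12.89 ± 0.69 at D180, so the steps between days were of the size of the spread between rats. Since 1 array links slides 1 to 4 with slides 5 to 7, the step from D28 to D90 and the change of slides cannot be told apart.

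Rats of one group differed from each other, and the genes differed in step. To describe this, the group mean was removed from every value and the 50 remaining deviations were correlated between genes. Of the 28 pairs of genes, 23 correlated positively and the mean Pearson's r was 0.25, with a standard error of 0.07 from leaving out each rat in turn. It was 0.26 with slide means removed as well, 0.30 over the rats of slides 1 to 4 and 0.16 over those of slides 5 to 7. After adjustment over the 28 pairs, 10 pairs passed a permutation test within groups (100000 resamples, two-sided), all of them positive, by Pearson's r and as many by Spearman's rho. None of the 7 pairs with *Hif3a* was among them, and 1 of the 7 pairs with *Sgk1* was. Rats were permuted across slides, here and for the gene lists below. These permutation p-values therefore do not separate agreement between genes from a shared effect of slide.

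The closest pair was *Fkbp5* and *Zbtb16*, with r = 0.85 and rho = 0.85. The permutation p of 1e-05 was the smallest these permutations can give, and adjusted over the pairs it was 0.00014. The correlation was 0.91 with slide means removed, positive within each of the 7 slides (0.66 to 0.98) and 0.82 without the 2 rats farthest from the median. The control D180 rat with the lowest *Zbtb16* of its group lay at -1.21 for *Fkbp5* and -4.40 for *Zbtb16*, the lower left end of the relation.

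*Tsc22d3* and *Klf9* formed the second close pair, with r = 0.81 and rho = 0.80 (permutation p = 1e-05, adjusted 0.00014). With slide means removed r was 0.64, and it was positive within each of the 7 slides (0.13 to 0.89). *Tsc22d3* was the gene with most partners: it also passed with *Errfi1* (r = 0.53), *Dusp1* (0.50), *Sgk1* (0.48), *Zbtb16* (0.47) and *Fkbp5* (0.38), at adjusted permutation p of 0.00196 to 0.0223. *Dusp1* and *Errfi1* correlated at 0.52 (adjusted p = 0.00231), and *Errfi1* and *Klf9* at 0.50 (adjusted p = 0.00672). *Zbtb16* and *Klf9* were at 0.37 (adjusted p = 0.00672). In contrast, *Errfi1* and *Dusp1* were near 0 with *Fkbp5* (0.10 and 0.15) and with *Zbtb16* (-0.02 and 0.16), none of which passed the test.

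**Figure D3:**
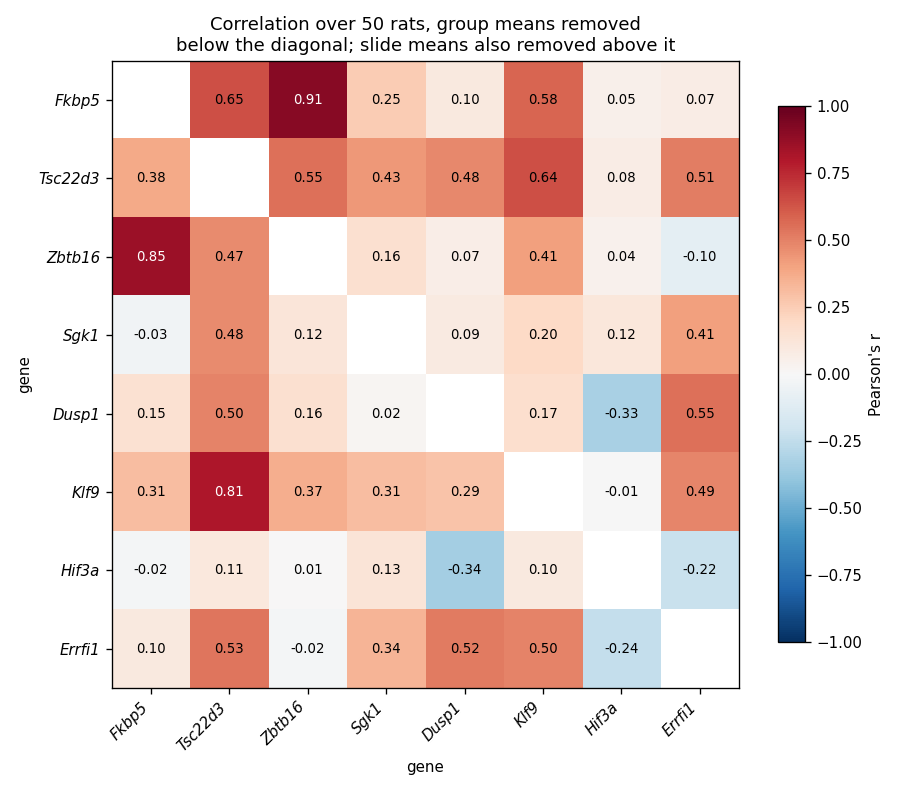
Pearson's r between each pair of the 8 genes (both axes) over 50 rats with group means removed (below the diagonal) and with slide means removed too (above it), from blue at -1 to red at 1. *Fkbp5* with *Zbtb16* (0.85 and 0.91) and *Tsc22d3* with *Klf9* (0.81 and 0.64) stand out, while the lowest value is that of *Dusp1* with *Hif3a* (-0.34 and -0.33).

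Agreement within a rat was also counted over the 6 genes other than the dim *Hif3a* and the narrow *Sgk1*, a choice made after their values had been seen. In 6 of 50 rats all 6 genes were above the group mean, and in 6 rats all 6 were below it. Control D0 replicate 5 and exposed D0 replicate 3 were below in all 6 genes, by a mean of -0.60 and -0.70, and control D28 replicate 3 was above in all 6, by 0.59. Control D90 replicates 4 and 5 were below in all 6 and exposed D90 replicate 4 above in all 6. Kendall's W, which is 1 where every gene ranks the 5 rats of a group alike and averages 1 divided by the number of genes, 0.17 for 6 genes, where their ranks are unrelated, was 0.77 in control D90 rats, 0.71 in exposed D0 and 0.69 in control D0. In exposed D180 (0.083) and exposed D3 rats (0.14) it was below the value for unrelated ranks. Over all 8 genes, where unrelated ranks average 0.125, W ranged from 0.072 to 0.58.

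The size of these deviations differed widely between genes. The pooled within-group SD was 1.29 for *Zbtb16*, larger than that of 99.5% of all genes, and 0.50 for *Fkbp5*. It was 0.46 for *Dusp1*, 0.34 for *Tsc22d3*, 0.27 for *Errfi1* and 0.26 for *Klf9*, beside a median of 0.27 over all genes. For *Sgk1* it was 0.11, larger than that of 10.2% of genes. Slide accounted for 58.6% of the within-group variance of *Klf9*, 53.2% of that of *Sgk1* and 47.6% of that of *Tsc22d3*, but for 14.2% in *Fkbp5* and 14.8% in *Zbtb16*.

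**Figure D4:**
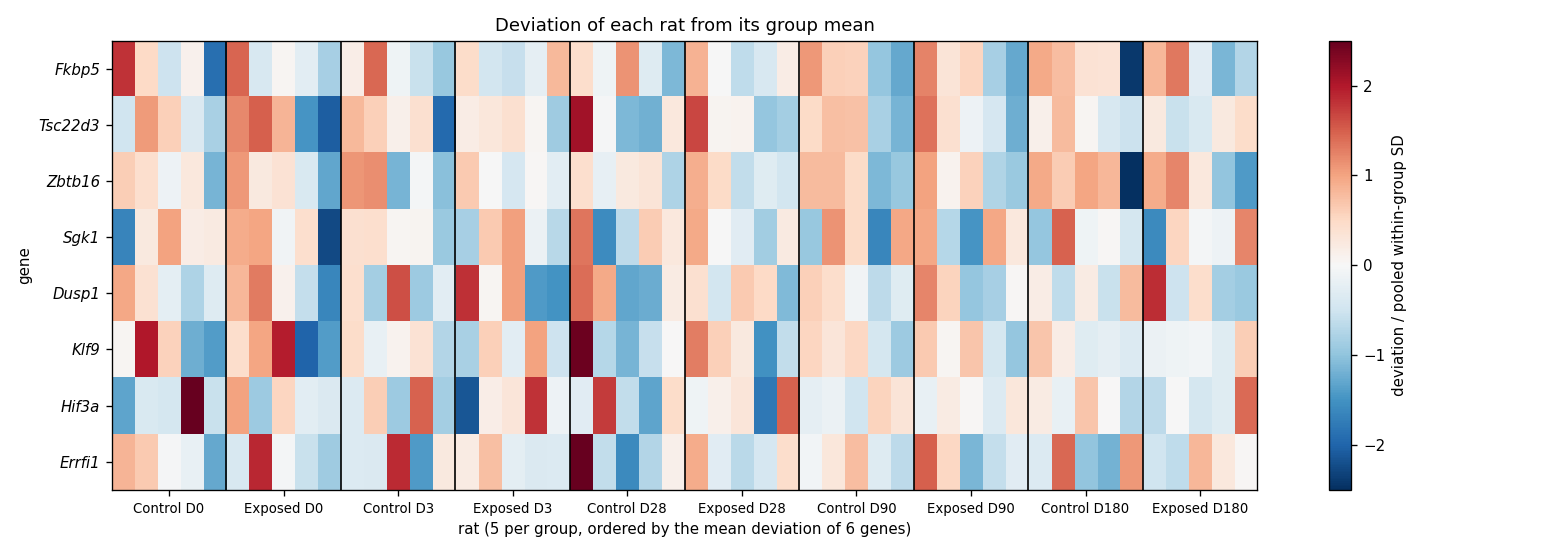
Deviation of each of the 50 rats (horizontal axis, 5 per group) from its group mean for the 8 genes (vertical axis), divided by each gene's pooled within-group SD, from blue (below) to red (above). Columns of one colour, as in control D90 and exposed D0, mark rats in which most genes deviated together, with W of 0.37 and 0.58 over the 8 genes shown and 0.77 and 0.71 over the 6 genes without *Hif3a* and *Sgk1*.

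Scores of 14 gene lists were then set beside the 8 genes, and 12 of the 112 pairs passed the test. The deviations of *Tsc22d3*, *Zbtb16* and *Fkbp5* correlated negatively with the mean of the 6 T and B cell markers (*Cd3e*, *Cd3d* and *Cd79b* among them), with r of -0.66, -0.62 and -0.54. Spearman's rho was -0.65, -0.65 and -0.55. The permutation p adjusted over the 112 pairs of a gene and a list was 0.000448, 0.00056 and 0.0077, and with slide means removed r was -0.61, -0.64 and -0.64. Without the 2 rats farthest from the median of each gene r was -0.59, -0.59 and -0.47. *Klf9* was at -0.44 (adjusted p = 0.0237), which shrank to -0.27 with slide means removed. The summed linear signal of the 6 markers ranged from 2048 to 3161 in control and from 3003 to 4261 in exposed rats at D0, and from 2840 to 3516 against 3336 to 4388 at D28. These ranges overlapped in part at D0 and D28, as they did at D180 (2747 to 4248 against 3476 to 4300). They overlapped throughout at D3 (3062 to 4852 against 3898 to 4221) and D90 (3161 to 4263 against 3152 to 4229). All 6 markers were higher in exposed rats at D0 (median 0.54), and 5 had an unadjusted p under 0.05 by limma. Of these 6, 1 was called at D0 (4.28% of all genes called), and 2 with slide as a block. On the later days 0 were called in either fit. Averaged over the 5 days, 5 of the 6 markers were higher in exposed rats (median 0.19, beside -0.01 over all genes). In this average 0 were called by limma, also with slide as a block, while 4 had an unadjusted p under 0.05. *Ms4a1*, the CD20 gene of B cells, was well above background on 39 arrays and the other 5 markers on all 50. *Tsc22d3* also correlated with the mean of the 6 lung epithelial markers at 0.57 and with the 5 macrophage markers at -0.54 (adjusted p = 0.00672 and 0.0237), which became 0.41 and -0.17 with slide means removed. Whether lymphocyte content has a part in the lower *Fkbp5* and *Zbtb16* was not tested.

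**Figure D5:**
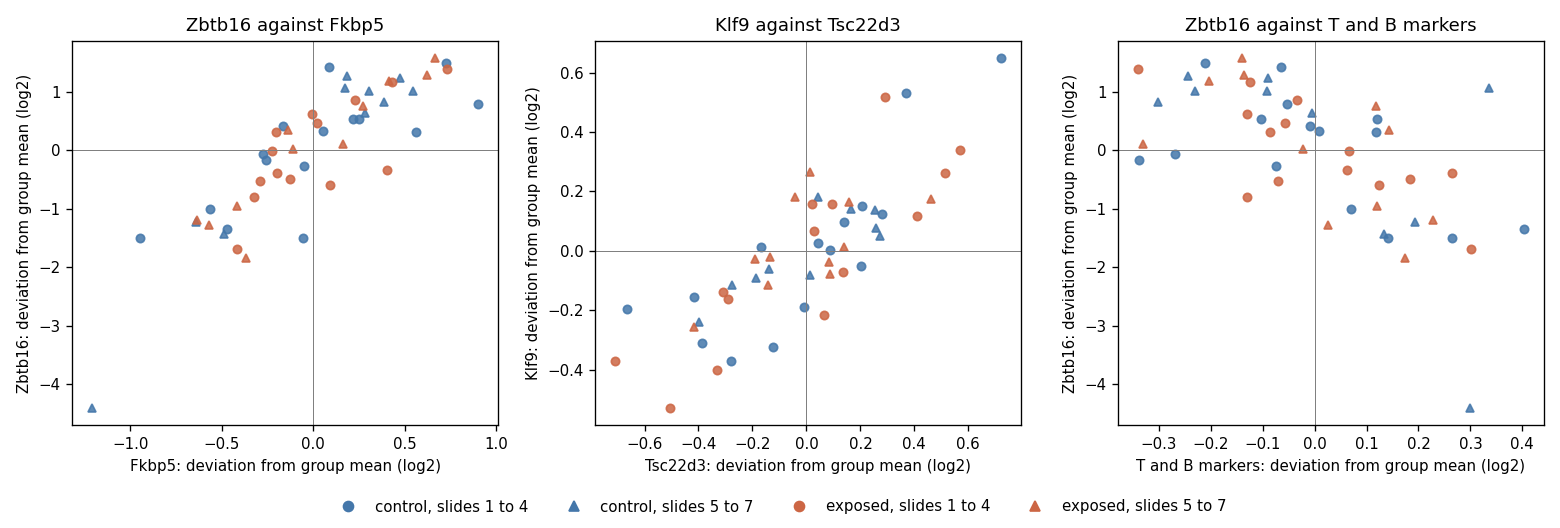
Deviations from the group mean (log2, both axes) of the 50 rats for *Zbtb16* against *Fkbp5* (r = 0.85), *Klf9* against *Tsc22d3* (r = 0.81) and *Zbtb16* against the mean of the 6 T and B cell markers (r = -0.62). Colours mark control and exposed rats and symbols the slides; both treatments and both sets of slides lie along the same bands.

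Among genes outside the 8, the likeness of deviations was measured over the same 50 rats in 12092 named genes well above background on at least 45 arrays. The 4 genes closest to the mean of the 8 standardised genes were *Tmem252* (r = 0.91), *Cdip1* (0.78), *Sgsm3* (0.76) and *Cdc42ep4* (0.76). With slide means removed these were 0.89, 0.66, 0.71 and 0.76. *Tmem252* was also the closest gene to *Tsc22d3* (0.87) and to *Klf9* (0.83). The closest to *Fkbp5* was *Mro* (0.84), to *Zbtb16* was *Shroom2* (0.81), which organises apical actin, to *Dusp1* was *Adamts1* (0.84), a secreted metalloprotease, and to *Errfi1* was *Ddit4* (0.85), an inhibitor of mTORC1. *Capza2*, an actin capping protein, was closest to *Sgk1* (0.78, and 0.50 with slide means removed), and the best match for *Hif3a* was *Dand5* at 0.51. These are highest values out of many genes and carry no test.

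The genes were then set beside the rest of the pathway. Among the 15 genes of the receptor and of steroid handling, 1 was called at D0 and 1 at D3, where 4.28% and 3.48% of all genes were, and it was the same gene in opposite directions. This was *Hsd11b2*, the enzyme that inactivates corticosterone, which was 0.68 ± 0.16 higher in exposed rats at D0 (adjusted p = 0.00268) and -0.60 ± 0.16 lower at D3 (adjusted p = 0.0115). The exposure effects at D3 and D0 differed by -1.28 ± 0.23 (adjusted p = 0.00101). In control rats *Hsd11b2* rose by 1.73 ± 0.16 from D0 to D3 (adjusted p = 2.01e-10) and fell by 0.70 ± 0.16 from D3 to D28 (adjusted p = 0.0134). *Nr3c1*, the glucocorticoid receptor itself, was called at none of the 5 days and differed most at D3 (-0.40 ± 0.15, adjusted p = 0.0896). *Nr3c2*, the mineralocorticoid receptor, was -0.44 ± 0.07 lower at D3 (adjusted p = 8.76e-06) and -0.25 ± 0.07 lower at D0 (adjusted p = 0.00706), both under the fold limit. *Hsd11b1*, which regenerates corticosterone, differed by -0.19 at D0 and by less on the other days, and passed no test. Over the list, 3 of the 15 genes were higher in exposed rats at D0 (median -0.25), and 9 had an unadjusted p under 0.05 by limma. In the mean of the 5 days 1 of the 15 was higher, 9 had an unadjusted p under 0.05 by limma and 0 were called. The median of that mean was -0.13, beside -0.01 over all genes.

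Of 30 other genes known to be induced by glucocorticoids, 5 rose and 2 fell at D0, 5 rose and 3 fell at D3, and 1 rose at D28 (4.28%, 3.48% and 1.33% of all genes called), with medians of -0.02, -0.17 and 0.06. With slide as a block 7, 7 and 1 were called on these days in turn. The genes that rose most were *Mt2A* (1.35) and *Mt1a* (1.20), metallothioneins that bind zinc, and *Il1r2* (1.16), the decoy receptor of interleukin 1, at D0, with adjusted p of 2.63e-08, 1.01e-09 and 1.16e-06. *Pdk4*, which diverts pyruvate from oxidation, fell by 1.15 ± 0.40 at D0 (adjusted p = 0.0485). At D3 *Il1r2* (1.78, adjusted p = 9.24e-11), *Angptl4* (1.04, 5.68e-05) and *Gadd45g* (0.98, 5.38e-05) rose, and *Scnn1a*, a subunit of the epithelial sodium channel, fell by 0.84 ± 0.11 (adjusted p = 2.4e-07). At D28 the 1 gene was *Mt1a* (0.59 ± 0.13, adjusted p = 0.00301). *Per1*, a clock gene with a well known receptor site, differed by -0.61, -0.61, 0.45, 0.54 and -0.20 in the order of the days, with an SE of 0.32, and passed no test. Within groups the mean of these 30 genes correlated with *Errfi1* (r = 0.83, adjusted permutation p = 0.00028), *Tsc22d3* (0.71, 0.00028), *Dusp1* (0.68, 0.00028) and *Klf9* (0.56, 0.0147). With slide means removed these were 0.84, 0.77, 0.67 and 0.59. *Fkbp5* was at 0.40 by Pearson's r (adjusted permutation p = 0.0623) and at 0.43 by Spearman's rho, which passed (0.0458). *Zbtb16* was at 0.28 and 0.36 (0.225 and 0.0967).

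Inflammatory genes that glucocorticoids repress came next. Of 15, 7 rose and none fell at D0 (median 0.72), 6 rose and none fell at D3 (0.64), 0 were called by limma at D28 and D180, and 1 fell at D90. At D28 and D180, 4 and 5 of the 15 had an unadjusted p under 0.05 by limma. With slide as a block 8, 8, 1, 2 and 0 were called on the 5 days in turn. Without this block, the shares of all genes called on the 5 days in turn were 4.28%, 3.48%, 1.33%, 0.38% and 0.325%. *Ccl2*, the main monocyte chemokine, rose by 2.55 ± 0.23 at D0 (adjusted p = 1.05e-11) and 2.07 ± 0.23 at D3 (4.66e-09). At D0 the neutrophil chemokines *Cxcl2* and *Cxcl1* rose by 1.82 and 1.72 and *Tnf* by 1.77, with adjusted p of 2e-04, 1.35e-06 and 4.77e-08. At D3 *Cxcl1*, *Tnf* and *Cxcl2* rose by 1.405, 1.31 and 1.28 (adjusted p = 7.49e-05, 3.23e-05 and 0.0125), and at D90 *Cxcl1* fell by 1.06 ± 0.25 (adjusted p = 0.0203). The neutrophil markers *S100a8* and *S100a9* rose by 1.37 and 1.69 at D0 and by 1.56 and 1.68 at D3 (adjusted p of at most 7.97e-09). They were the 2 called of 5 neutrophil markers on each day. At D0 4 of the 5 were higher in exposed rats (median 0.37), and at D3 all 5 were (0.51). At both days the summed signal of the 5 neutrophil markers did not overlap between groups, at 29819 to 45548 in control and 87068 to 129126 in exposed rats at D0. This sum mostly reflects *S100a9* and *S100a8*, with mean log2 signals of 15.0 and 13.4, beside 8.2, 8.3 and 6.8 for *Csf3r*, *Cxcr2* and *Mmp8*. Of the 4 mesothelial markers, 0 were higher in exposed rats at D3 (median -0.51), and 3 had an unadjusted p under 0.05 by limma. On that day 2 of them were called lower, but 0 were with slide as a block. The part of neutrophils or of mesothelial content in the differences of *Dusp1* and *Klf9* was not tested.

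Immediate early genes, to which *Dusp1* is related by its fast induction, answer to acute stimuli. Of 18, 3 fell at D0, *Nr4a1* by 1.28 ± 0.40, *Klf4* by 0.80 ± 0.17 and *Klf2* by 0.80 ± 0.24 (adjusted p = 0.0235, 0.000637 and 0.0179), and none was called on the other 4 days, against 4.28% of all genes called at D0 and 0.325% to 3.48% on the others. On these 4 days in turn, 4, 0, 8 and 0 of the 18 had an unadjusted p under 0.05 by limma, and with slide as a block 2 were called at D90. Their median was -0.47 at D0 and -0.40 at D90, the 2 days with the lowest *Dusp1* differences, and 0.05 to 0.12 on the others. Within groups, *Dusp1* correlated with the mean of these genes at r = 0.78 (adjusted permutation p = 0.00028), and at 0.82 with slide means removed. Handling at death and the time from death to fixation were not recorded in the labels, and their part was not tested.

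Circadian clock genes were called in larger numbers than the genes of any other list on every day. Of 13 measured, 3 rose and 7 fell at D0 and 4 rose and 7 fell at D3. On the later days in turn, 8 rose and 4 fell, 6 rose and 4 fell, and 5 rose and 4 fell. The shares of all genes called in either direction ran from 4.28% at D0 to 0.325% at D180. With slide as a block 10, 11, 12, 11 and 11 of the 13 were called on the 5 days in turn. *Dbp*, a transcription factor whose level follows the time of day, differed between exposed and control rats by -1.95 and -2.49 on the first 2 days and by 3.27, 3.36 and 2.97 on the later 3 (SE 0.24, adjusted p of at most 4.02e-08). *Nr1d1*, the clock repressor REV-ERB alpha, differed by -3.27, -1.31, 3.04, 2.22 and 3.03. *Arntl*, which encodes BMAL1 and peaks at the opposite phase, differed by 1.26, 1.67, -1.47, -1.58 and -1.09. *Klf9* differences were negative at D0 and D3 and positive at D90, as those of *Dbp* were, but its differences at D28 and D180 were 0.03 and -0.06. The *Fkbp5* and *Zbtb16* differences were negative on all 5 days, on either side of the change of sign in *Dbp*. Within groups the clock score correlated with *Fkbp5* at 0.38 (adjusted p = 0.036) and with *Zbtb16* at 0.38 (adjusted p = 0.0511). The part of the time of day in these differences was not tested.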

How the data were processed

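Accessory lung lobes of 50 rats were measured on Agilent 1-colour (Cy3) arrays, 1 rat an array. The deposited scanner files hold spot intensity, background subtracted and spatially detrended by Agilent Feature Extraction 11.0.1.1 per the file headers, not scaled between arrays. The series' value table holds the authors' processed intensity, with medians of 8.67 to 8.68 on the log2 scale and correlations of 0.970 to 0.989 with the scanner values. Its exact scaling is not given in the sources used here, and it served as an alternative.

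Control spots and spots flagged as non-uniform or outliers were left out, repeat spots were averaged as log2 values for each probe, and arrays were quantile normalized. Probes above the 95th percentile of an array's negative controls on at least 5 arrays were kept (29578 probes), and the brightest probe stood for a gene (25235 genes). The 10 group means were fitted with limma 3.58.1 in R 4.3.3, and contrasts were adjusted by Benjamini-Hochberg over all genes. Calls needed a 1.5-fold change and an adjusted p under 0.05. Simulated data were used to check the fit. Number of arrays, 5 a group, limits the precision.

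The 8 genes and all lists were chosen with earlier results of these data known. Of the 15 clock genes listed 13 were measured, and all genes of the other lists. Some listed genes are not reported here by name. *Ciart* was carried as *RGD1566380*. Named by rule were the 8 genes, *Nr3c1*, *Nr3c2*, *Hsd11b1*, *Hsd11b2* and *Per1*, per pathway list and day at most 4 called genes with the largest change, and the genes nearest in likeness. Alternatives were 75th percentile scaling, normexp background correction (offset 50), the value table, a filter on 25 arrays or none, flagged spots kept, all probes averaged, slide or replicate number as a block, arrays of one day alone, no fold limit, Spearman's rho, and leaving out each rat.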

Additional observations from a re-analysis of the deposited data

Results flagged for a closer look

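Within groups of 5 rats, 1 rat stood far from the others in 7 of 80 combinations of gene and group, by Dixon's test at the 95% level, where chance gives about 1 in 20. Control D180 replicate 4 was flagged for both *Fkbp5* (11.68, next 13.06) and *Zbtb16* (4.41, next 9.64). Control D3 replicate 1 was flagged for both *Tsc22d3* (12.21, next 12.92) and *Sgk1* (10.88, next 10.99). Exposed D3 replicate 5 was the lowest for *Tsc22d3* (12.00, next 12.32), exposed D180 replicate 2 the highest for *Klf9* (13.03, next 12.85) and control D0 replicate 3 the highest for *Hif3a* (6.90, next 4.63). The exposure effect differed between days by limma's test of the difference in 2 cases: *Dusp1* at D28 was 1.43 above D0, and *Klf9* at D90 was 0.98 above D0. No cause was tested for any of these.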

How the results depend on the processing

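*Fkbp5* and *Zbtb16* averaged over the days were called under each of 10 alternatives, at -0.75 to -0.70 and -1.80 to -1.29. Of 540 values under alternatives other than leaving out a rat, 527 kept their direction and side of the threshold. With slide as a block the called genes numbered 2 at D0, 2 at D3, 2 for the effect at D28 against D0 (*Dusp1*, and *Klf9* at 0.60, adjusted p = 0.0188) and 1 at D180 against D0. On the arrays of D28 alone 1 gene was called, and with no fold limit 3 at D0 and 2 for D90 against D0. Differences near 0 turned sign without a call: by normexp *Errfi1* at D28 (-0.0016), *Hif3a* at D90 (0.0061) and its mean (-0.0049), in the series' value table *Dusp1* at D180 (-0.0017) and the *Hif3a* mean (-0.00048), and with slide as a block *Klf9* at D28 (-0.0098). The cause was not tested.

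Without 1 rat, calls numbered 1 to 3 at D0, 0 to 2 at D3, 0 to 2 at D28 and 0 to 1 for D28 against D0. Of 840 such values 773 were the same. *Klf9* at D0 was called in 5 of 10 such fits. Uncalled differences turned sign within these ranges: at D3 *Dusp1* (-0.39 to 0.0077); at D28 *Tsc22d3* (-0.30 to 0.024), *Sgk1* (-0.0015 to 0.079), *Klf9* (-0.059 to 0.19), *Hif3a* (-0.041 to 0.56) and *Errfi1* (-0.091 to 0.20); at D90 *Tsc22d3* (-0.18 to 0.043), *Hif3a* (-0.14 to 0.053) and *Errfi1* (-0.028 to 0.15); at D180 *Dusp1* (-0.17 to 0.14) and *Hif3a* (-0.30 to 0.090). The mean correlation between genes was 0.23 to 0.26 under 9 alternatives and 0.21 to 0.26 without 1 rat.

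Replicate numbers did not pair the samples: 8 of 25 same-numbered pairs correlated above 0.1 (-0.34 to 0.45), and 13 of 50 rats were closest to their own number. With the replicate number as a block within each day, calls numbered 1, 1, 2, 0 and 0 from D0 to D180. As a block over all days it left 0 calls for D28 against D0 (*Dusp1*, adjusted p = 0.0527) and changed no other count. *Hif3a* and low *Zbtb16* signals lay near background, which limits their values.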
